A study of Mus musculus with 35 samples.

Results

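H3K4me3 and H3K27Ac, both marks of active chromatin, were compared in wild-type mouse retinae at postnatal day 14 (P14). The members were the 19829 and 19669 peaks of the H3K4me3 libraries, titled replicates 2 and 3, and the 17433 and 50005 peaks of the H3K27Ac libraries, replicates 1 and 2. These are 106936 of the 723032 peaks and islands in the 27 lists of the series. Every peak was placed in 1 of 3 classes, according to whether it shared at least 1 bp with peaks of the other mark in both, in 1 or in no replicate.

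The material was whole retina, so each list is a sum over all retinal cell types. More cells carrying a mark cannot be told apart from more mark per cell, and overlapping peaks of 2 marks may come from different cells. ChIP was performed with the iDeal ChIP-seq kit, and the labels name the antibodies only as H3K4me3-AB2 and H3K27Ac-AB2. Wild-type retinae of P0 and P21, with 2 libraries per mark and stage, and of P12 served for comparison, as did H3K27me3 libraries of the same stages. Brg1-FLAG ChIP-Seq of P0 retinae from knock-in mice, whose Brg1 carries a FLAG tag, gave 1 further list. The labels give no strain and do not say whether replicates came from separate litters, so p-values measure the spread between these libraries, which may be technical.

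H3K4me3, trimethylation of lysine 4 of histone H3, is laid down around the start sites of genes that are transcribed or held ready for transcription. H3K27Ac, acetylation of lysine 27, is found at active promoters and also at active enhancers, which as a rule carry little H3K4me3. H3K27me3 is the Polycomb mark on the same lysine as the acetyl group, so that a single histone tail cannot carry both. Promoters with H3K4me3 and H3K27me3 together are called bivalent and are typical of developmental regulators. In the rodent retina, P14 is the time around eye opening, after the last progenitor cells have left the cell cycle and while photoreceptors mature.

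Depth in reads is unknown, and list sizes and covered length are the only hints to it in the files. The H3K4me3 lists were close in size (ratio 1.01), and 95.4% and 91.6% of the peaks of one were found in the other. The H3K27Ac lists differed 2.87-fold in size and covered 12.9 Mb in replicate 1 and 40.2 Mb in replicate 2. Of the replicate 1 peaks 99.1% were also in replicate 2, whereas 27.3% of the replicate 2 peaks were in replicate 1. Most values are therefore given for each replicate. The part of list length in the classes was not tested beyond the cut to equal numbers of peaks given at the end.

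Most H3K4me3 peaks overlapped H3K27Ac in at least 1 replicate. In H3K4me3 replicate 2, 48.4% of the peaks overlapped H3K27Ac in both replicates (Wilson 95% interval 47.7 to 49.0%), 35.8% in 1 replicate and 15.9% in no replicate. In replicate 3 the shares were 48.4% (47.7 to 49.1%), 35.7% and 16.0%. The replicates thus gave the same picture, with intervals that cover counting error only. Nearly all of the middle class came from the longer acetylation list, since 7083 of the 7095 such peaks in H3K4me3 replicate 2 and 7003 of 7013 in replicate 3 had H3K27Ac in replicate 2 alone. Measured against H3K27Ac replicate 2 by itself, 84.1% and 84.0% of the H3K4me3 peaks were acetylated, and against replicate 1 by itself 48.4% and 48.4%.

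The reverse comparison depended on the list. In H3K27Ac replicate 1, 65.6% of the peaks overlapped H3K4me3 in both replicates (64.8 to 66.3%) and 31.7% in none. In H3K27Ac replicate 2, 36.6% did (36.1 to 37.0%) and 61.0% overlapped none. In peak numbers, H3K27Ac replicate 1 held 5522 peaks without H3K4me3 and replicate 2 held 30484. The class of 1 replicate was small here, at 2.77% and 2.47%.

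**Figure D1:**
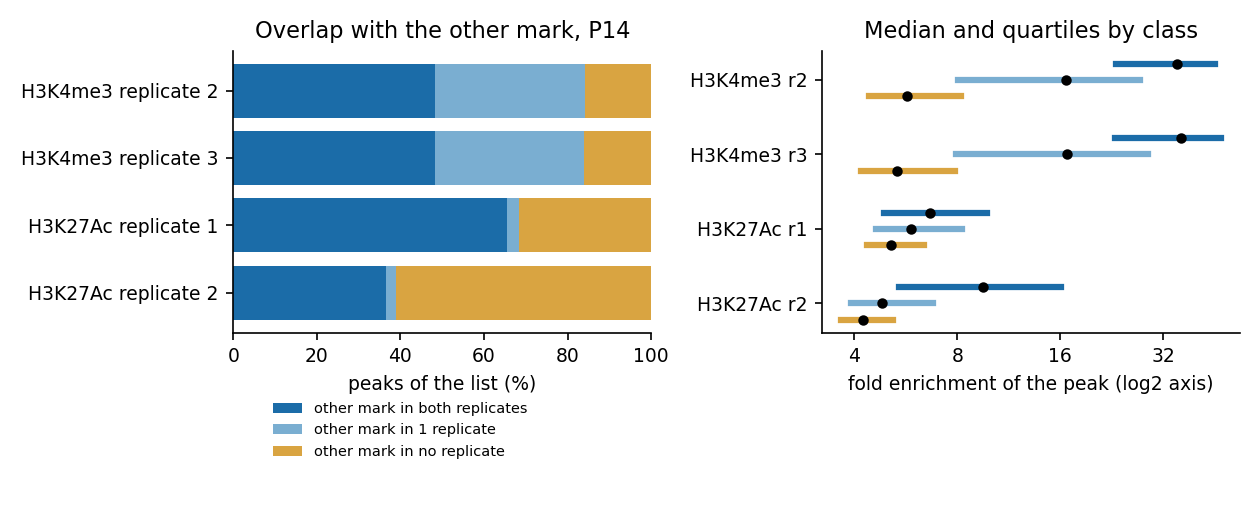
Left, the share of each P14 list (%) whose peaks overlapped the other mark in both, 1 or no replicate; right, the median (black point) and quartiles (bar) of fold enrichment in each class on a log2 axis. The H3K4me3 lists look alike, with 15.9% and 16.0% of peaks without H3K27Ac, whereas the H3K27Ac lists part, with 31.7% and 61.0% without H3K4me3.

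When the 4 P14 lists were merged, they gave 50047 regions. A peak of all 4 lists was found in 8929 of them (17.8%), with a median region length of 2002 bp. H3K4me3 in both replicates with no H3K27Ac at all was found in 2200 regions (4.40%), with a median of 622.5 bp. H3K27Ac in both replicates with no H3K4me3 was found in 3495 regions (6.98%), with a median of 1197 bp. A further 26849 regions (53.6%) held only an H3K27Ac peak of 1 replicate. Regions in which both libraries of a mark had a peak were thus more often shared with both libraries of the other mark (8929) than free of it (2200 and 3495).

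H3K4me3 peaks were longer and higher than H3K27Ac peaks. At P14 the median length was 1156 and 1280 bp in the H3K4me3 libraries and 508 and 497 bp in the H3K27Ac libraries. The means were 1218 ± 87.7 bp and 502.5 ± 7.78 bp (SD, n = 2 each). The median fold enrichment over background, as the authors' peak caller gave it, was 22.5 and 22.6 for H3K4me3 and 5.96 and 4.85 for H3K27Ac. The marks did not overlap in either measure at P14, where 2 libraries against 2 cannot give an exact permutation p below 0.333.

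Over P0, P14 and P21 together the median length of H3K4me3 peaks exceeded that of H3K27Ac by 756 bp, and the median fold enrichment by 16.7. Both differences had an exact two-sided permutation p of 0.00926, with marks exchanged within stages (12 libraries), which is the smallest this design can give. The libraries of the marks did not overlap at any of the 3 stages. Within replicate-number pairs at P0 and P21 the differences were 776 bp and 16.5, with an exact p of 0.125, the smallest that 4 pairs allow. In the strongest 50% of each list by −log10 q-value the fold enrichment difference was 33.0. Fold enrichment is a ratio within 1 library that depends on its depth and on the antibody, and it was not scaled between libraries.

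**Figure D2:**
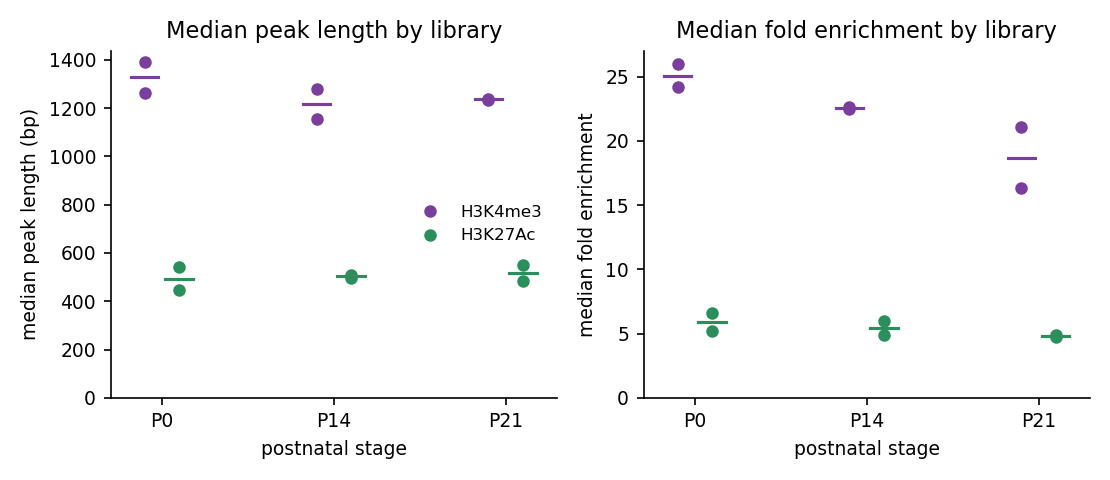
Median peak length (bp, left) and median fold enrichment (right) of each wild-type library at P0, P14 and P21; each point is 1 library and each line the mean of 2. H3K4me3 libraries lie above all H3K27Ac libraries at every stage, with P14 means of 1218 and 502.5 bp.

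Peaks with the other mark were higher and longer than peaks without it, far more so for H3K4me3 than for H3K27Ac. In H3K4me3 replicate 2 the median fold enrichment was 35.1 with H3K27Ac in both replicates, 16.6 with it in 1 replicate and 5.69 without it. In replicate 3 the medians were 36.0, 16.7 and 5.32. The ratio of the outer classes was thus 6.16-fold and 6.78-fold at P14. Over the 6 H3K4me3 libraries of P0, P14 and P21 it lay between 4.63-fold and 10.1-fold, a mean log2 ratio of 2.68 ± 0.37 (SD, n = 6), above 0 in 6 of 6 libraries. The exact two-sided sign-flip permutation p was 0.03125, the smallest that 6 libraries allow. Peaks with the other mark were also longer, and a longer peak meets the rule of at least 1 bp more readily. The p-value does not separate this from height. The mean log2 ratio was 1.59 among peaks found in the other replicate of the mark and 1.95 with equal numbers of peaks, with the same exact permutation p.

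The same ratio was smaller for H3K27Ac. In H3K27Ac replicate 1 the median fold enrichment was 6.67 with H3K4me3 in both replicates and 5.12 without it, and in replicate 2 it was 9.50 and 4.25. These are ratios of 1.30-fold and 2.24-fold. Over 6 libraries the mean log2 ratio was 0.66 ± 0.32 (SD, n = 6), above 0 in 6 of 6, with the same exact permutation p of 0.03125. Libraries of 1 stage share the lists of the other mark, so the 6 values are not fully independent.

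Length followed height. The median H3K4me3 peak with H3K27Ac in both replicates was 1612 bp long in replicate 2 and 1756.5 bp in replicate 3, and the median peak without H3K27Ac 391 and 461 bp, a ratio of 4.12-fold and 3.81-fold. The median H3K27Ac peak with H3K4me3 was 577 bp in replicate 1 and 948 bp in replicate 2, and without it 387 and 376 bp. Over 6 libraries the mean log2 ratio was 1.82 ± 0.20 for H3K4me3 and 0.90 ± 0.34 for H3K27Ac (SD, n = 6 each; exact permutation p = 0.03125 for both). Among peaks found in the other replicate of the mark these were 0.98 and 0.48, and with equal numbers of peaks 1.196 and 0.43. A longer peak meets the rule of at least 1 bp more readily, so the classing itself favours ratios above 0. Its part in the length ratios and in the fold enrichment ratios was not tested, and the p-values do not separate it. H3K4me3 peaks with H3K27Ac in both replicates made up 65.6% and 65.5% of the bases under H3K4me3, and peaks without it 6.36% and 6.69%.

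Ranking the peaks of a list by fold enrichment showed where the classes changed over. Among the highest decile of H3K4me3 peaks, the top 10% of a list, 90.7% in replicate 2 and 88.9% in replicate 3 carried H3K27Ac in both replicates, and 1 peak in each list (0.0505 and 0.0509%) carried none. In the lowest decile, 21.1% and 20.6% carried it in both and 46.9% and 49.1% in none. The share did not fall steadily: it stayed between 18.7% and 21.2% over the lowest 4 deciles of both lists. Peaks with acetylation in the longer H3K27Ac list alone were most common in the middle, at 59.7% and 58.9% of the fourth decile.

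Among H3K27Ac peaks the lists parted. In replicate 2 the share with H3K4me3 in both replicates rose from 15.0% of the lowest decile to 97.6% of the highest. In replicate 1 it was 58.5% of the lowest decile and 90.9% of the highest. H3K27Ac peaks of the highest decile without any H3K4me3 were 1.76% of that decile in replicate 2 and 7.11% in replicate 1. The longest decile of H3K27Ac peaks carried H3K4me3 less often than the highest decile did. It had H3K4me3 in both replicates in 76.9% (replicate 1) and 73.3% (replicate 2) and none in 18.7% and 23.6%. In the shortest decile the share with H3K4me3 in both replicates was 43.9% and 10.6%.

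**Figure D3:**
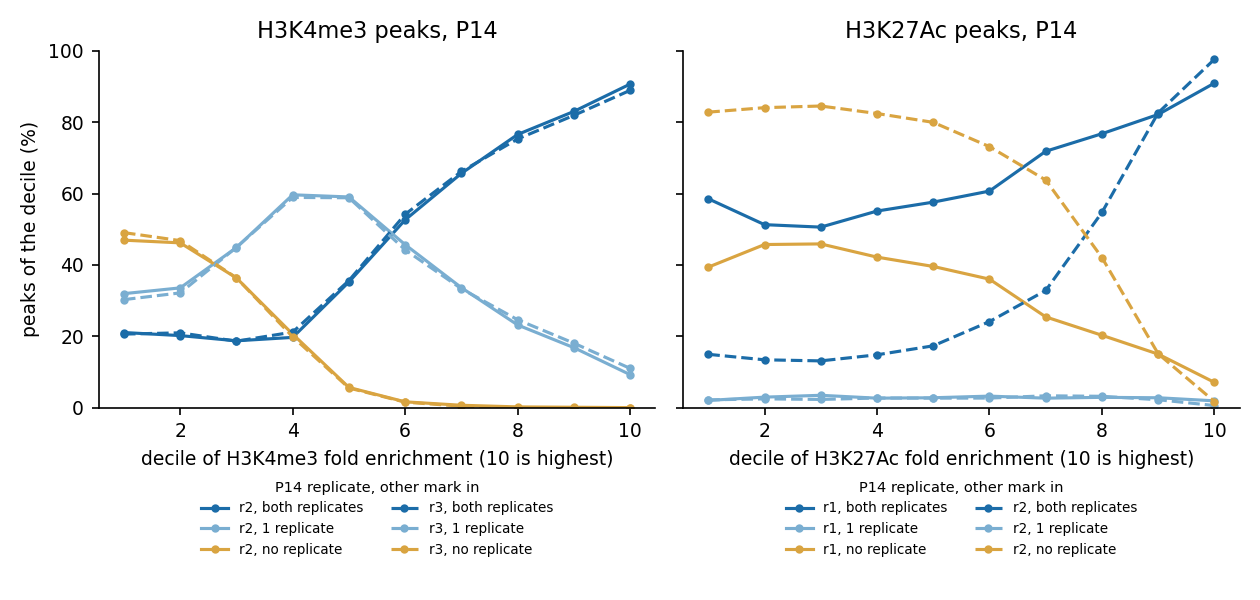
Peaks of each P14 list were ranked by fold enrichment and cut into 10 deciles (x axis, 10 is highest); the y axis is the share of each decile (%) with the other mark in both, 1 or no replicate. H3K27Ac in both replicates covers 18.7 to 21.2% of the lowest 4 deciles of H3K4me3 and 90.7% and 88.9% of the highest.

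Weak H3K4me3 peaks with and without H3K27Ac differed in the other stages. In the lowest 30% of H3K4me3 replicate 2, the 1191 peaks with H3K27Ac in both replicates and the 2568 without it had nearly the same median fold enrichment, 5.27 and 5.22. Of the weak acetylated peaks 20.7% had H3K4me3 in both P0 libraries, against 82.3% of the weak peaks without acetylation. At P21 the order was turned, with 78.3% and 52.1%. Replicate 3 gave 20.7% and 80.7% at P0, and 72.2% and 46.0% at P21. The P21 gap rests on the shorter P21 list, replicate 2, since in P21 replicate 1 alone the shares were 99.1% and 91.4% for replicate 2, and 98.4% and 88.6% for replicate 3. H3K27me3 of P14 lay at 2.02% and 1.77% of the weak acetylated peaks and at 51.6% and 51.0% of the weak peaks without acetylation.

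Weak acetylated H3K4me3 peaks also lay closer to other H3K4me3 peaks, of any height, than weak peaks without acetylation did. In replicate 2, 458 of the 1191 (38.5%) shared an H3K27Ac peak with a higher H3K4me3 peak of the same list, and the median distance to the nearest H3K4me3 peak was 557 bp. In replicate 3 the share was 30.4% and the distance 1168.5 bp. Weak peaks without acetylation lay at a median of 5255.5 and 6986 bp from the nearest H3K4me3 peak. In replicate 2, 57.2% of the weak acetylated and 39.4% of the weak unacetylated peaks lay within 1000 bp of another H3K4me3 peak. In replicate 3 these shares were 49.1% and 35.8%. A peak low in the list has more peaks above it, so the share beside a higher peak depends on the rank itself.

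H3K27me3 divided the H3K4me3 classes. Islands of H3K27me3 present in both P14 libraries overlapped 24.3% of all H3K4me3 peaks of replicate 2 and 24.4% of replicate 3. They overlapped 4.48% and 4.50% of the peaks with H3K27Ac in both replicates, 38.1% and 38.2% of the peaks with H3K27Ac in 1 replicate, and 53.4% and 54.0% of the peaks without it. The H3K4me3 replicates gave nearly the same shares in every class, and the share was higher in classes with H3K27Ac in fewer replicates. The classes are different peaks of 1 stage, so they do not show a change of mark at a peak. The P14 H3K27me3 lists were uneven over the chromosomes: replicate 2 held 281 islands on chromosome 14 and 0 on chromosome X. In replicate 1, chromosomes 1 to 4 held 11.2%, 15.2%, 6.90% and 12.7% of the islands, against 6.13%, 7.97%, 4.25% and 6.05% in replicate 2. Leaving out chromosomes 14, X and Y does not remove the unevenness of replicate 1. Without chromosomes 14, X and Y the mean shares of H3K4me3 peaks overlapping H3K27me3 were 4.62% with H3K27Ac in both replicates and 57.4% without it. With H3K27me3 replicate 2 alone they were 7.26% and 62.4%, and with H3K27Ac replicate 2 alone 18.8% and 53.6%. With the H3K27me3 lists of P21 they were 4.62% and 58.7%, and with those of P12, for which the labels name a different antibody, 7.57% and 58.4%.

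H3K4me3 peaks with H3K27me3 were longer by median than those without it, whether acetylated or not. Their median fold enrichment was lower where H3K27Ac was in both replicates and higher where it was in none. A longer peak also meets an island more readily under the rule of at least 1 bp, and the part of this was not tested. In replicate 2 the 430 peaks with H3K27Ac and H3K27me3 in both libraries reached 31.3 in median fold enrichment and 1943 bp in median length, and the 8840 peaks with H3K27Ac but no H3K27me3 reached 35.4 and 1594 bp. In replicate 3 these were 30.9 and 2040.5 bp for 428 peaks, and 36.4 and 1743 bp for 8761 peaks. Without H3K27Ac, the 1680 replicate 2 peaks with H3K27me3 had medians of 6.01 and 477 bp and the 1097 with neither mark 5.46 and 322 bp. The 1697 and 1092 such peaks of replicate 3 had 5.74 and 557 bp, and 4.94 and 367.5 bp. H3K27me3 was already present at P0 at 85.6% of the 1680 peaks of replicate 2, against 5.10% of the 1097, and at 86.4% and 4.58% of the replicate 3 sets. H3K4me3 was present at P0 at 93.2% and 72.7% in replicate 2, and at 92.6% and 69.2% in replicate 3. Most H3K4me3 peaks of P14 with H3K27me3 and without acetylation were thus in the P0 lists of H3K4me3 and of H3K27me3.

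The H3K27Ac libraries differed in how many of their peaks with H3K4me3 also overlapped H3K27me3. Of the H3K27Ac peaks with H3K4me3 in both replicates, 3.87% in replicate 1 and 19.1% in replicate 2 overlapped H3K27me3 of both P14 libraries. In replicate 2 the difference lay in the peaks that replicate 1 did not hold: 34.9% of the 8743 such peaks with H3K4me3 overlapped H3K27me3, against 4.57% of the 9544 that replicate 1 also held. The former had a median fold enrichment of 5.41 and the latter of 15.3. At P21 the same split was seen, with 2.02% in replicate 1 and 13.7% in replicate 2, and at P0 with 12.2% and 17.9%. H3K27Ac peaks without H3K4me3 rarely met H3K27me3, at 0.199% in replicate 1 and 1.77% in replicate 2.

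P14 acetylation at H3K4me3 was mostly in the P0 lists too, and P14 acetylation elsewhere mostly was not. Of all H3K27Ac peaks at P14, 52.7% in replicate 1 and 25.7% in replicate 2 were present in both P0 H3K27Ac libraries. Among peaks with H3K4me3 in both replicates the shares were 78.2% and 65.0%. Among peaks without H3K4me3 they were 3.84% and 2.84%. One P0 library decides the lower values: in the longer P0 list alone, the mean share of peaks without H3K4me3 was 11.7% against 3.50% in the shorter list alone, and of peaks with H3K4me3 83.2% against 72.0%.

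At later stages the gap was small for the peaks of replicate 1 and remained for those of replicate 2. In H3K27Ac replicate 1, 76.0% of the peaks with H3K4me3 and 76.6% of the peaks without it were found in both P21 libraries. In replicate 2 the shares were 45.5% and 21.99%. The P21 lists held 18718 and 45833 peaks, and in the longer one alone, replicate 2, the shares were 99.1% and 92.8% for P14 replicate 1, and 86.1% and 53.7% for P14 replicate 2. Among the replicate 2 peaks that replicate 1 also held, 79.0% and 79.7% were in both P21 libraries. In the single P12 library, 99.1% and 95.9% of the replicate 1 peaks with and without H3K4me3 were present, and 84.7% and 55.9% of the replicate 2 peaks. P14 acetylation without H3K4me3 was therefore largely shared with P12 and P21 where both P14 libraries held it, and largely absent from the P0 lists.

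H3K4me3 was present at P0 whether or not a peak was acetylated at P14. In H3K4me3 replicate 2, 87.8% of the peaks with H3K27Ac in both replicates, 91.2% with it in 1 and 85.1% without it had H3K4me3 in both P0 libraries. In both P21 libraries the shares were 97.3%, 89.7% and 60.0%. In replicate 3 the P21 shares were 96.5%, 88.3% and 54.7%. The low share without H3K27Ac rests on P21 replicate 2, the shorter list with 18534 peaks. In P21 replicate 1 alone, with 24124 peaks, the shares were 99.9%, 99.2% and 92.7% for replicate 2, and 99.8%, 99.1% and 90.5% for replicate 3. H3K27Ac was found in both P0 libraries at 82.5%, 49.6% and 7.63% of the 3 classes of replicate 2, and at 82.5%, 49.6% and 7.28% of those of replicate 3. In the longer P0 list alone, replicate 2, it was found at 88.6%, 73.5% and 25.1%, and at 88.7%, 73.3% and 24.3%. Of the H3K4me3 peaks without H3K27Ac at P14, 22 in replicate 2 (0.699%) and 17 in replicate 3 (0.541%) had H3K27Ac in both P21 libraries. In P21 H3K27Ac replicate 2 alone, the longer list, these were 324 (10.3%) and 307 (9.76%).

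Brg1, the ATPase of the SWI/SNF chromatin-remodelling complex, was measured at P0 only. Its peaks overlapped 86.1% of the P14 H3K4me3 peaks of replicate 2 with H3K27Ac in both replicates, 67.2% with it in 1 and 39.4% without it. In replicate 3 the shares were 85.9%, 67.3% and 38.4%. Of the H3K27Ac peaks with H3K4me3 in both replicates 82.3% and 76.0% overlapped Brg1, and of those without H3K4me3 29.1% and 21.9%. Over all peaks the shares were 71.9% and 71.7% for H3K4me3 replicates 2 and 3, and 64.4% and 42.2% for H3K27Ac replicates 1 and 2. Among unacetylated H3K4me3 peaks of replicate 2, Brg1 lay at 53.3% of those with H3K27me3 and at 21.7% of those without, and in replicate 3 at 52.7% and 20.5%. There is 1 Brg1 library, so these shares have no replicate check on the Brg1 side. The classes with fewer Brg1 peaks also had lower and shorter peaks, whose part in the shares was not tested.

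**Figure D4:**
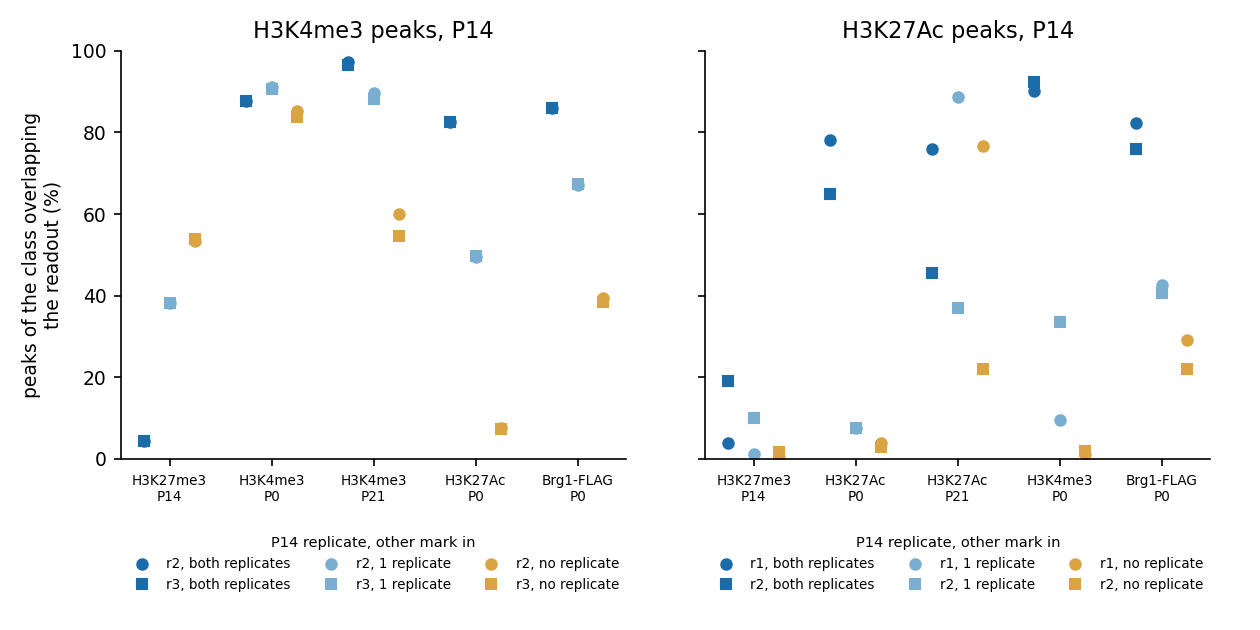
Share (%) of P14 H3K4me3 peaks (left) and H3K27Ac peaks (right) of each class that overlap another readout, in both of its libraries (Brg1-FLAG: its 1 library); symbols are the P14 replicates and colours the class of the other mark. H3K27me3 lies at 4.48% of the H3K4me3 replicate 2 peaks with H3K27Ac in both replicates and at 53.4% of those without it. P0 H3K27Ac lies at 78.2% of the H3K27Ac replicate 1 peaks with H3K4me3 in both replicates and at 3.84% of those without it.

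The unshared peaks of the marks lay at different distances from the other mark. H3K27Ac peaks without H3K4me3 had a median gap of 10748 bp (replicate 1) and 12149 bp (replicate 2) to the nearest H3K4me3 peak of either library. H3K4me3 peaks without H3K27Ac lay further from the nearest H3K27Ac peak, with medians of 21692 and 25236.5 bp. Within 1000 bp of the other mark lay 14.1% and 9.19% of the former and 21.7% and 18.0% of the latter. More than 100000 bp away lay 7.03% and 6.52% of the former and 21.2% and 22.2% of the latter.

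Distance separated the unshared H3K4me3 peaks further. In replicate 2 the 684 peaks within 1000 bp of H3K27Ac were low and short, with medians of 4.89-fold enrichment and 294 bp. The 1916 peaks more than 10000 bp away had medians of 6.33 and 451 bp. The medians of replicate 3 were 4.38 and 336 bp for 565 near peaks and 5.92 and 522 bp for 2001 far ones. H3K4me3 was present in both P0 libraries at 71.1% of the near and 91.8% of the far peaks, and in replicate 3 at 62.3% and 91.3%. For unshared H3K27Ac peaks the distance made little difference to height, with 5.09 near and 5.22 far in replicate 1 and 4.31 and 4.23 in replicate 2. Brg1 of P0 lay at 36.0% of the near and 24.9% of the far H3K27Ac peaks of replicate 1, and at 32.9% and 20.2% in replicate 2.

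Where the marks met, they met at nearly the same place. The median distance from an H3K4me3 summit to the nearest summit of an overlapping H3K27Ac peak was 68 bp in both H3K4me3 libraries against H3K27Ac replicate 1. Against H3K27Ac replicate 2 it was 48 and 51 bp. Between the H3K4me3 replicates it was 40 and 37 bp, and between the H3K27Ac replicates 95 bp from replicate 1 and 63 bp from replicate 2. From H3K27Ac summits to those of H3K4me3 it was 94 and 101 bp for replicate 1 and 57 and 66 bp for replicate 2. The distances between the marks were thus longer than those between the H3K4me3 replicates and of the same size as those between the H3K27Ac replicates. Pairs share libraries, so no test was made of these distances.

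The H3K4me3 summit lay inside the H3K27Ac peak at 91.8% and 91.7% of the overlapping peaks for replicate 1 and at 97.6% and 97.3% for replicate 2. H3K4me3 peaks that met acetylation mostly met a single acetylated peak. In replicate 2, 7615 peaks (38.4%) met 1 peak of H3K27Ac replicate 1, 1750 (8.83%) met 2 and 235 (1.19%) met 3 or more, while 51.6% met none. Against H3K27Ac replicate 2, 72.1% met 1 peak and 10.7% met 2. Peaks that met 2 of H3K27Ac replicate 1 were longer, with a median of 2057.5 bp against 1494 bp for those that met 1. The gap between the acetylated peaks had a median of 180 bp, and the H3K4me3 summit fell in it in 43 of the 1750 peaks (2.46%) and in one of the acetylated peaks in 1671 (95.5%). For the other 3 pairs of lists the summit fell in the gap in 1.31 to 2.16%.

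**Figure D5:**
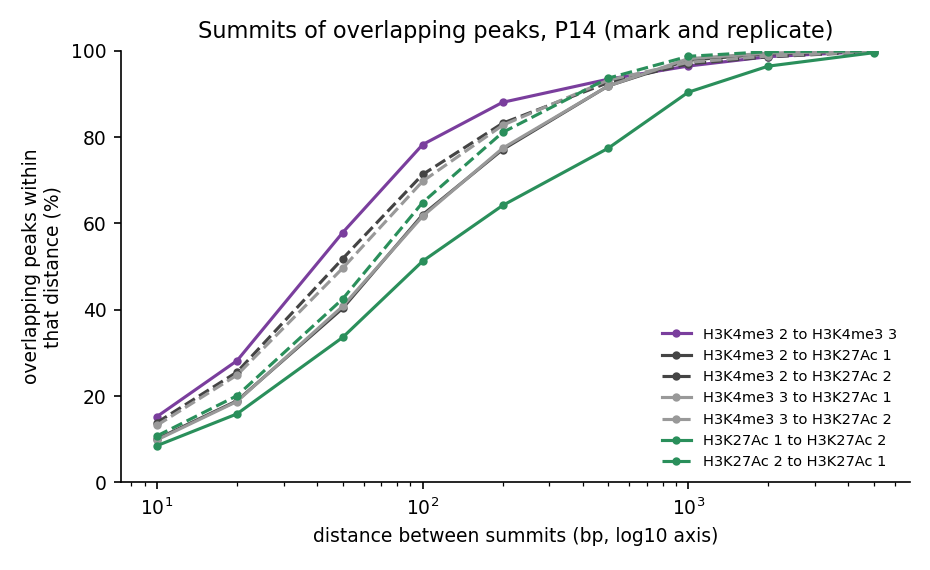
For overlapping P14 peaks, the share (%, y axis) whose summits lie within a given distance (bp, log10 x axis); each line is an ordered pair of lists, named by mark and replicate. Within 100 bp lie 61.7 to 71.3% for the lines from H3K4me3 to H3K27Ac. From H3K4me3 replicate 2 to replicate 3 it is 78.3%, and between the H3K27Ac replicates 51.3% and 64.8%.

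How closely the heights of the marks were related, where all 4 lists had a peak, depended on the pair of libraries. Over the 8929 such regions, Spearman's rho between H3K4me3 and H3K27Ac was 0.261 and 0.333 for H3K4me3 replicate 2 against H3K27Ac replicates 1 and 2. For H3K4me3 replicate 3 it was 0.134 and 0.689. Between replicates of a mark it was 0.529 for H3K4me3 and 0.470 for H3K27Ac. By rank the closest pair of lists was H3K4me3 replicate 3 with H3K27Ac replicate 2, across the marks. By Pearson's r on log2 fold enrichment it was the H3K4me3 replicates, with 0.800 against 0.618 for that pair. Regions are not replicates, and the values are a description over regions chosen for holding both marks.

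Single regions show the range. Coordinates are on mm9 as in the authors' lists, with no annotation of that build used here, so genes are not given. The highest H3K4me3 region without any H3K27Ac was chr7:56135865-56137493, with fold enrichments of 56.8 and 52.4 in replicates 2 and 3. It carried H3K27me3 in both libraries at P0, P12, P14 and P21. The next was chr1:20809783-20810616, with 45.0 and 30.3 and no H3K27me3 at any stage. The others, chr17:56442845-56444128, chr2:152673574-152674268 and chr7:19495112-19496331, had no H3K27me3 either, and fold enrichments of 39.7 and 31.7, 46.8 and 21.8, and 41.4 and 27. All 5 had H3K4me3 and H3K27Ac in both P0 libraries, H3K4me3 in both P21 libraries and H3K27Ac in none at P21.

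The unacetylated H3K4me3 regions with the longest peaks, by the mean over the replicates of the longest peak in the region, were another group. They were chr3:93247870-93252026, chrX:58144734-58147940, chr12:74145141-74148140, chr14:29317415-29320100 and chr8:101938360-101941161. All 5 had H3K27me3 in both libraries at P0, P12 and P21, and in 2 of 2 P14 libraries apart from the one on chromosome X, which had it in 1. Their fold enrichment was lower, between 10.1 and 37.7, and each had a Brg1 peak at P0.

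The highest H3K27Ac region without H3K4me3 was chr19:24283730-24289694, with fold enrichments of 14.4 and 25.05 in replicates 1 and 2. It had H3K27Ac in neither P0 library and in both P21 libraries, and H3K4me3 in both P21 libraries. By mean length of the longest peak in each list, the first was chr6:31535776-31544319, with 11.4 and 17.4, in which replicate 1 called 6 peaks and replicate 2 called 1. The 10 regions named by height or by length for this class had no H3K27me3 at P12, P14 or P21, and H3K27Ac in both P21 libraries. At P0, H3K4me3 was present in none of the 10. At P21 it was present in at least 1 library in all of them except chr11:114636041-114644887. Of all H3K27Ac peaks without H3K4me3 at P14, 28.2% in replicate 1 and 9.84% in replicate 2 overlapped H3K4me3 of P21 replicate 1. In P21 replicate 2, the shorter H3K4me3 list, these shares were 3.31% and 1.14%.

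The region with the highest joint rank of both marks was chr4:107971829-107974126, with H3K4me3 fold enrichments of 69.6 and 64.6 and H3K27Ac fold enrichments of 22.7 and 36.6. The next were chr1:58479220-58481253, chr12:84825320-84830262, chr11:116975493-116980869 and chr17:28937249-28939481. All 5 had both marks in both libraries at P0 and P21 and a Brg1 peak at P0. The region with both marks that ranked first by mean peak length, chr6:30115174-30132259, held an H3K27Ac peak of 17086 bp in replicate 2 and an H3K4me3 peak of 15019 bp in replicate 3. It overlapped H3K27me3 in both libraries at P0 and at P12, in 1 at P14 and in 1 at P21.

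The share of H3K4me3 peaks with H3K27Ac in both replicates (doubly marked) was lower at P14 than at P0 and higher than at P21. The share without H3K27Ac in any replicate was lowest at P14. The share with H3K27Ac in both replicates was 56.6% and 54.4% at P0, 48.4% and 48.4% at P14, and 41.1% and 45.5% at P21. The share without it was 27.3% and 29.4% at P0, 15.9% and 16.0% at P14, and 27.1% and 18.8% at P21. These shares therefore show no steady loss of acetylation at H3K4me3 peaks from P0 to P21. The libraries of the stages did not overlap, and 2 against 2 allow no exact permutation p below 0.333. For H3K27Ac the share with H3K4me3 was 86.1% and 61.0% at P0, 65.6% and 36.6% at P14, and 54.9% and 40.3% at P21. There the libraries of P14 overlapped those of both other stages (exact permutation p = 0.667 and 1). H3K27me3 of the same stage lay at 14% of doubly marked H3K4me3 peaks in each P0 library, at 4.48% and 4.50% at P14, and at 2.12% and 2.37% at P21.

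The class without acetylation depended on which peaks were kept. When only the stronger 50% of each list by −log10 q-value was kept, 1.58% of H3K4me3 peaks (mean of 2 libraries) had no H3K27Ac, against 15.9% with all peaks. When all 4 lists were cut to the 17433 strongest peaks, the share was 28.5%. In the same cut, the mean share of H3K27Ac peaks without H3K4me3 was 29.5%, against 46.3% with all peaks. The mean share with H3K4me3 in both replicates was 68.3%, against 51.1%.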

How the data were processed

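Peaks of 4 wild-type P14 libraries were analysed, with the other wild-type libraries of H3K4me3, H3K27Ac and H3K27me3 and 1 Brg1-FLAG library as further readouts. Groups and replicate numbers follow the sample titles. The deposited lists number the P14 H3K4me3 libraries differently. Per the submitters' processing notes, reads were aligned with BWA 0.5.9-r26 to mm9, and the tools named include MACS2 2.0.9, SICER 1.1 and bedtools 2.17.0. The authors called peaks per library, not on pooled replicates. The deposited fold enrichment is a linear ratio over background at the summit, and the deposited −log10 q-value ranks peaks. The H3K27me3 lists give islands with positions only. Lists of Brg1-deficient retinae were not used here.

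Python 3.11.15 with pandas 2.3.3 and numpy 2.4.6 served to compute overlaps of at least 1 bp, gaps and summit distances. The overlap counts of 12 ordered pairs of lists were checked against bedtools 2.31.1, and 0 differed. On 19829 simulated peaks with known classes, 19829 were given their true class. Shares carry Wilson 95% intervals (scipy 1.17.1), for counting error only. Library medians were compared by exact permutation tests at a threshold of 0.05. Figures were drawn with matplotlib 3.10.9. Heights of merged regions are the highest fold enrichment of a list within them.

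Regions named are the 5 highest and the 5 longest (mean over the lists of the longest peak in the region) with a peak in both replicates of a mark and none of the other, and the 5 with the highest joint rank and the 5 longest with both marks. The comparison, the classes and the alternatives were chosen with earlier results of these data known. No mm9 sequence or annotation was used here, so the planned promoter counts, gene lists and the check of the tissue against marker genes were not run, and no sequence is printed. Replicate numbers pair the marks at P0 and P21 only by title. The height differences between replicates 2 and 1 of the marks were correlated over shared regions with r = 0.34 at P0 (11576 regions) and r = 0.22 at P21 (7663 regions).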

Additional observations from a re-analysis of the deposited data

How the results depend on the processing

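Of 125 alternative values, 84 kept their direction and their side of the threshold or moved by less than the spread between libraries, 31 moved by more and 10 lost the threshold of 0.05. No difference or ratio between marks or classes reversed. The spread was unlike between shares, so the counts are no common measure. With the other mark in both replicates, its SD was 0.0049 for the share of H3K4me3 peaks and 20.5 for that of H3K27Ac peaks. The share of H3K4me3 peaks with H3K27Ac in both replicates (mean 48.4%) was 48.0% at an overlap of at least 50%, 54.4% in the stronger 50% of peaks, 51.2% with equal numbers of peaks and 48.4% on chromosomes 1 to 19 and X, and between 48.4% and 84.0% without 1 replicate in turn. The share without H3K27Ac (15.9%) was 16.4%, 1.58% and 28.5% under the first 3 of these, and 15.9 to 51.6% without 1 replicate. The highest value of each range came without H3K27Ac replicate 1 and without H3K27Ac replicate 2, respectively.

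P14 H3K27me3 at H3K4me3 peaks without H3K27Ac (53.7%) was 65.2% with islands of either replicate, 53.2% at an overlap of at least 50%, and 43.0 to 62.4% without 1 replicate. At peaks with H3K27Ac (4.49%) it was 7.85% and 3.81%, and 4.48 to 18.8% without 1 replicate, the highest without H3K27Ac replicate 1. Chosen after seeing the data, leaving out chromosomes 14, X and Y gave 57.4% and 4.62%, H3K27me3 of P12 58.4% and 7.57%, and of P21 58.7% and 4.62%. P0 H3K27Ac in either replicate lay at 11.9% of the H3K27Ac peaks without H3K4me3 (3.34% in both) and at 83.6% of those with it (71.6%). Without 1 replicate the ranges were 2.84 to 11.7% and 65.0 to 83.2%.

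With the replicate block, possible at P0 and P21 only, the marks differed by 776 bp in median length and by 16.5 in median fold enrichment, each with an exact p of 0.125, the smallest for 4 pairs. No paired analysis was possible at P14 because by title the marks share only replicate number 2. Without 1 P14 replicate the differences were 735 to 777 bp and 16.5 to 16.9. They were 938 bp and 33.0 in the strongest 50% of peaks, 679 bp and 21.3 with equal numbers, and 593 bp and 20.1 among peaks found in the mark's other replicate, all past the threshold. Without 1 P14 replicate the log2 ratios of class medians were 2.36 to 2.69 (H3K4me3) and 0.56 to 0.71 (H3K27Ac) for fold enrichment, and 1.53 to 1.79 and 0.82 to 0.97 for length. For H3K4me3 they fell from 2.68 and 1.82 to 1.59 and 0.98 among peaks found in the mark's other replicate and to 1.95 and 1.196 with equal numbers of peaks. For H3K27Ac they were 0.64 and 0.48, and 0.51 and 0.43, against 0.66 and 0.90. Ratios that leave out a library of the mark rest on 5 libraries, which allow no p below 0.0625. Counts at promoters and over gene lists were not run, since no mm9 annotation was used. Depth is unknown, and weak peaks are listed only where a library had enough signal.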

Other observations

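On chromosome X the marks met less often at H3K4me3 peaks and more often at H3K27Ac peaks than on any autosome. H3K27Ac in both replicates lay at 33.8% and 34.5% of the X-linked H3K4me3 peaks (replicates 2 and 3), against 40.9 to 52.6% and 41.0 to 52.1% over the 19 autosomes. H3K4me3 in both replicates lay at 89.4% and 81.0% of the X-linked H3K27Ac peaks (replicates 1 and 2), against 57.2 to 71.0% and 27.3 to 45.0%. Chromosome X held 3.26% and 3.22% of the H3K4me3 peaks and 1.73% and 1.29% of the H3K27Ac peaks. The X-linked H3K4me3 peaks also had a lower median fold enrichment, 17.8 and 15.7 against 19.6 to 26 and 19.9 to 26.4 on the autosomes. At P0 the H3K4me3 shares were 51.3% and 49.1% on X against 56.8% and 54.6% on all other chromosomes, and at P21 23.6% and 27.3% against 41.6% and 46.1%. Sex of the animals was not used here, and no test was made.

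How closely the heights of H3K4me3 and H3K27Ac were related in regions with all 4 lists differed between pairs of libraries. At P14 the difference between H3K4me3 replicates 3 and 2 was correlated with that between H3K27Ac replicates 2 and 1 with r = 0.48 (8929 regions). By Spearman's rho, the closest pair across the marks at P0 was replicate 2 of each, with 0.612, and at P21 again replicate 2 of each, with 0.544, where H3K27Ac replicate 1 gave -0.06 and -0.05 with the H3K4me3 libraries. The P14 H3K4me3 library titled replicate 3 is the one the deposited list numbers 2.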
